A study of Mus musculus with 16 samples.

Results

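The oxidative phosphorylation machinery was examined in cultured brain endothelial cells through the genes for its subunits that lie in the nuclear genome. Members were all protein-coding genes whose GENCODE vM21 symbol begins with Ndufa, Ndufb, Ndufc, Ndufs or Ndufv (complex I), Sdha to Sdhd (complex II), Uqcr (complex III), Cox4 to Cox8 (complex IV) or Atp5 (complex V), with the assembly factors Ndufaf and Sdhaf left out. This gave 85 genes of the 39057 in the count table, which were 38 for complex I, 4 for complex II, 8 for complex III, 18 for complex IV and 17 for complex V. Of these, 78 passed the filter on low counts and were tested, among 12481 tested genes in all. The filter left out 1 member of complex I and 6 of complex IV. A prefix is not a function, and Ndufa4, listed here with complex I, is known as a subunit of complex IV, while Atp5s encodes coupling factor B rather than a subunit of the core enzyme.

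Complexes I and II pass electrons from NADH and succinate to ubiquinone, complex III passes them on to cytochrome c, and complex IV reduces oxygen. The proton gradient that complexes I, III and IV build drives ATP synthesis by complex V. Except for complex II, which is wholly nuclear-encoded, each complex is assembled from subunits of both the nuclear and the mitochondrial genome. Brain endothelial cells are known to be rich in mitochondria compared with the endothelium of many other organs.

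RNA was sequenced from 16 untreated primary cultures, 8 of each genotype, made from *APOE3* or *APOE4* targeted replacement mice, and each genotype had 4 male and 4 female cultures. In both lines a human *APOE* isoform is expressed from the endogenous mouse promoter in every cell type that uses it, so the comparison is between 2 human isoforms and has no wild-type mouse group. Cortices came from mice of 21 to 28 days, each well held the cells of 1 brain, and all cultures were purified with 8 µg/ml puromycin and grown to confluence.

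Libraries held 12717847 to 18624417 counts. Human *APOE* was counted in every library and was lower in *APOE4* cultures (log2 fold change -0.56, SE 0.0986, adjusted p = 0.00542, edgeR quasi-likelihood test), although a count does not tell the isoforms apart. The 15 brain endothelial markers summed to 15840 to 16900 CPM (counts scaled by the TMM-normalised library size) in *APOE3* and to 15690 to 17040 CPM in *APOE4* cultures. Taken singly, 6 were higher and 9 lower in *APOE4*, with a median log2 fold change of -0.035. *Emcn* rose (log2 fold change 0.14, edgeR adjusted p = 0.0106), 1 of 15 beside 12.8% of all tested genes that changed. With an unadjusted p below 0.05 only, *Cdh5* was higher (0.080) and *Tek* (-0.15), *Slco1a4* (-0.29) and *Esam* (-0.061) were lower. The 13 pericyte and smooth muscle markers summed to 192.6 to 361.6 CPM in *APOE3* and to 227.3 to 345.1 CPM in *APOE4*. Most of these sums came from *Tagln* (114.4 to 223 CPM) and *Acta2* (65.5 to 112.2 CPM). Of these 13 markers, 9 were tested and 0 changed by edgeR. Among the 9, 8 were higher in *APOE4* and only *Acta2* was lower (median 0.25 on the log2 scale). The 2 below an unadjusted p of 0.05, *Anpep* (log2 fold change 0.43) and *Myh11* (0.56), were both higher. In females all 9 were higher (median 0.53), whereas in males 5 were higher and 4 lower (median 8.4e-05). *Higd1b* never passed 3 counts. *Slc1a2* and *Aqp4* of the astrocyte markers, *P2ry12* and *Cx3cr1* of microglia, *Mag*, *Olig2* and *Mog* of oligodendrocytes, *Snap25* of neurons and *Dpt* and *Lum* of fibroblasts also never passed 3 counts. Other markers of these lists were present, led by *Col1a2* (3.15 to 45.9 CPM), *Gja1* (30.0 to 40.2 CPM), *Cnp* (23.8 to 36.6 CPM), *Tubb3* (7.78 to 12.6 CPM) and *Cd68* (4.89 to 7.48 CPM). Of the 10 tested in these 5 lists, *Cnp* rose in *APOE4* cultures (log2 fold change 0.23, edgeR adjusted p = 0.0143), and *Gja1*, *Aldh1l1*, *Tubb3* and *Rbfox3* were higher with an unadjusted p below 0.05 only. The part of such cell types in the members' values was not tested. All 30 cell cycle genes were higher in *APOE4* cultures and 27 changed, with a median log2 fold change of 0.65. *APOE4* culture 1, a male, had the fewest counts, the highest cell cycle score and the largest share of its counts in the 85 members, 0.532% against 0.465% to 0.491% in the 7 other *APOE4* libraries. Without this library, 12 of the 78 tested members changed the sign of their fold change between genotypes, none of them a called member.

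Promoters of the members are shown first because nuclear respiratory chain genes are known to be read through a small set of transcription factors, among them NRF1, the ETS factor GABP, YY1 and the estrogen-related receptors. RefSeq promoters of 300 bases, 250 before and 50 after the annotated start on GRCm38.p6, were matched by identifier or symbol to 67 of the 85 members. Some members had several promoters, 72 in all. Each was searched on both strands for GCGCANGCG (NRF1), CCGGAAG (ETS), AAGATGGC (YY1) and TNAAGGTCA (estrogen-related receptors). Nearby matches may overlap, since the NRF1 letters are nearly their own reverse complement. The 6 promoters printed here are that of *Ndufa6*, the only member that changed between genotypes, and those of the member with the highest level per length in each complex. They run 5′ to 3′ on the gene's strand, with every match in capitals.
Ndufa6, complex I, chr15:82354242-82354541, strand -: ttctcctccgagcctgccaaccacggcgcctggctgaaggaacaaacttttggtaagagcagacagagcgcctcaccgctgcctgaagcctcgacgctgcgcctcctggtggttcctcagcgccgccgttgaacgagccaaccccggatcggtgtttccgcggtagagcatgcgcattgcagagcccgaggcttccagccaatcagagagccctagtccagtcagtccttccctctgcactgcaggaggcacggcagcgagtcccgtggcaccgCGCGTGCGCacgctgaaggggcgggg
Ndufb7, complex I, chr8:83566508-83566807, strand +: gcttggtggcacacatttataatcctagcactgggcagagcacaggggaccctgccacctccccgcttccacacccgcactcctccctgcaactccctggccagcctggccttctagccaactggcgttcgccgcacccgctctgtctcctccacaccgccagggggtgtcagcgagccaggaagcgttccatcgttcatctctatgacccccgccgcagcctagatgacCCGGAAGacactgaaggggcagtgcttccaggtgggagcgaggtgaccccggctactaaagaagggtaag
Sdha, complex II, chr13:74350191-74350490, strand -: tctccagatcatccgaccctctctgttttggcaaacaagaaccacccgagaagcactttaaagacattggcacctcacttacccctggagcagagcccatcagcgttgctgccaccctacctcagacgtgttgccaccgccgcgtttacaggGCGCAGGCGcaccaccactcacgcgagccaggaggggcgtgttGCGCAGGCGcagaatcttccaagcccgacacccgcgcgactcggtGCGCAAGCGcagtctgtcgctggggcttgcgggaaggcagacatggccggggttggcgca
Uqcrh, complex III, chr4:116075021-116075320, strand -: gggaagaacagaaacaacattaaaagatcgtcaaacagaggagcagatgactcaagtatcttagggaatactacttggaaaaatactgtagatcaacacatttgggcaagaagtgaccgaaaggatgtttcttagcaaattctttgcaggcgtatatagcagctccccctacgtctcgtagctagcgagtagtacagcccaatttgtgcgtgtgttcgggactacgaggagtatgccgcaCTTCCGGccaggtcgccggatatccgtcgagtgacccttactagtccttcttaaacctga
Cox6a1, complex IV, chr5:115348909-115349208, strand -: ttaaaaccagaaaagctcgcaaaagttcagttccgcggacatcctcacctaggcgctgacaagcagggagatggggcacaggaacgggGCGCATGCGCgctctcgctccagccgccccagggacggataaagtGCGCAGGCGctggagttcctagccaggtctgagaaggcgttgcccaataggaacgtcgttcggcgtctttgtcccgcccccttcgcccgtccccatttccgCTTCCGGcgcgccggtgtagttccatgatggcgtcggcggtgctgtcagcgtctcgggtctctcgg
Atp5b, complex V, chr10:128083057-128083356, strand +: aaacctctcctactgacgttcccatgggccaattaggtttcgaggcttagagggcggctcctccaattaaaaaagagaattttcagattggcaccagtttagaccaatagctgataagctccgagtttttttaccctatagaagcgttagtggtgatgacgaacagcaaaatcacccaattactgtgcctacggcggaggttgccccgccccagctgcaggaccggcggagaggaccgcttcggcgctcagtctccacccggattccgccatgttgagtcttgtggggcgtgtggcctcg

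A gene was counted for a motif if any of its promoters held the letters. The NRF1 letters were found for 20 of the 67 members (29.9%), against 15.8% of the 9548 tested genes with a promoter and 7.03% of all 27025 genes with a promoter. They were found for 7 of 13 complex V members (53.8%), 8 of 33 of complex I (24.2%) and 1 of 13 of complex IV (7.7%), which was *Cox6a1*, printed above. The YY1 letters were in 9 members' promoters (13.4%, against 5.5% of tested genes), 7 of them of complex I. The ETS letters were in 16 (23.9%, against 20.8%), and the estrogen-related receptor letters in 3 (4.5%, against 0.8%). In the printed examples, *Sdha* held the NRF1 letters 3 times, *Ndufb7* and *Uqcrh* held only the ETS letters, and *Atp5b* held none of the 4 motifs. The *Ndufa6* promoter held the NRF1 letters once, 24 bases after the start. These are matches of letters, not measured binding.

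Levels per length were compared within and between complexes as RPKM, the CPM divided by the length of the principal transcript in kilobases, averaged over the 16 cultures. The median tested member stood at 35.7 RPKM in complex I, 41.5 in complex II, 63.0 in complex III, 74.9 in complex IV and 90.6 in complex V. *Cox6a1*, a small subunit of cytochrome c oxidase, was highest at 265.2 RPKM, next to *Atp5b*, the catalytic beta subunit of ATP synthase, at 260.9 RPKM. Their replicate spreads overlapped. *Ndufb7* led complex I at 102 RPKM, *Sdha*, the flavoprotein of succinate dehydrogenase, led complex II at 64.7 RPKM, and *Uqcrh*, the hinge protein of complex III, led at 138.4 RPKM. With the union of all annotated exons as length, the medians were 22.2, 30.1, 33.7, 49.4 and 30.4 RPKM in complexes I to V, so that complex IV and not complex V was highest. *Ndufc2* (76.2 RPKM) then led complex I, with *Ndufb7* at 14.1 RPKM, and *Uqcr10* (70.6 RPKM) led complex III, whereas *Sdha*, *Cox6a1* and *Atp5b* still led theirs.

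The lowest tested members per length were *Ndufb4* of complex I (2.25 RPKM), *Sdhc*, a membrane anchor of complex II (20.1 RPKM), *Uqcrfs1*, the Rieske iron-sulfur protein of complex III (28.2 RPKM), *Cox6b2* of complex IV (1.27 RPKM) and *Atp5s* of complex V (2.69 RPKM). With the union length the lowest were *Uqcrc1* in complex III (27.5 RPKM) and *Atp5l* in complex V (1.73 RPKM), and the same genes in the other complexes. Members have short transcripts, with a median of 863 bases against 3001 bases for all tested genes, and many have copies elsewhere in the genome. Of the 78 tested members, 32 shared no 50-base stretch with another annotated gene, 16 shared up to 10% of their stretches and 30 shared more. The largest shares were 87.4% for *Atp5g2*, 84.9% for *Atp5l*, 53.0% for *Cox7c*, 50.3% for *Atp5o*, 47.9% for *Atp5h* and 43.4% for *Uqcrb*, and *Ndufb4* shared 37.0%. How reads from such copies were counted is not given in the sources used here, so the levels of these genes are uncertain, and their part in the order of levels was not tested.

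**Figure D1:**
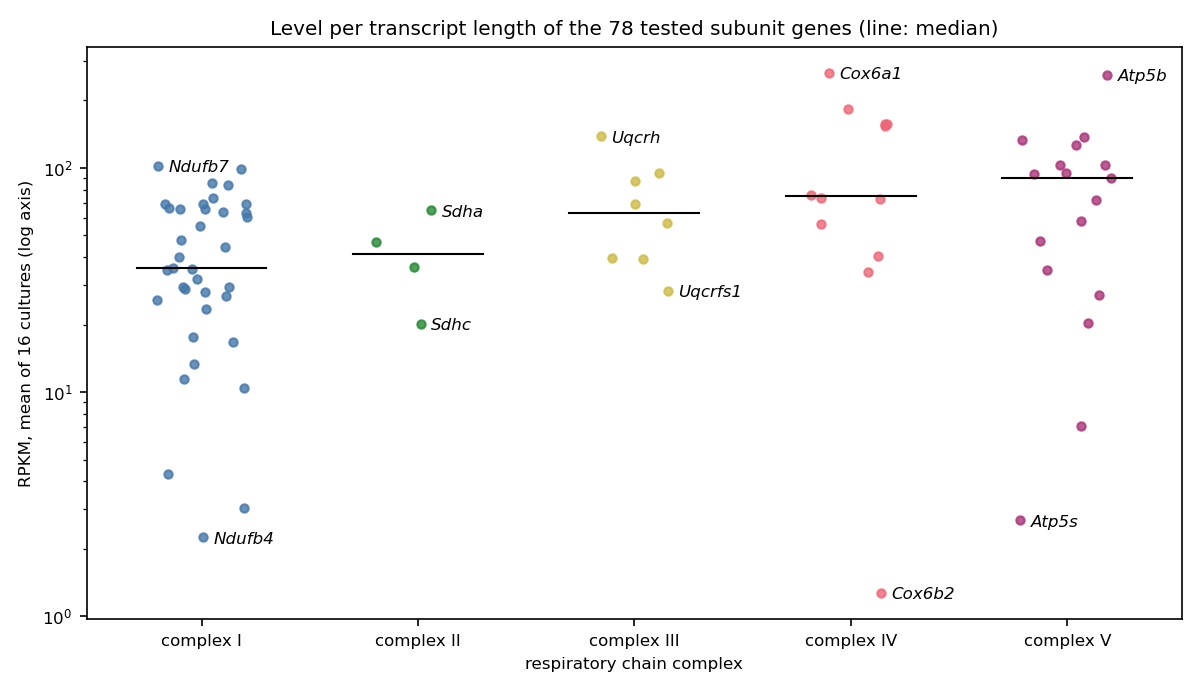
Mean level per transcript length (RPKM, log axis) of each of the 78 tested members over the 16 cultures, by complex, with a line at each complex's median and the highest and lowest member named. Medians run from 35.7 RPKM in complex I to 90.6 RPKM in complex V, and *Cox6a1* and *Atp5b* stand above 260 RPKM. With the union of exons as length, complex V falls to 30.4 RPKM and complex IV is highest at 49.4 RPKM.

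Where a subunit is encoded by more than a single gene, the cultures used mainly the broadly expressed isoform. *Cox4i1* made up 99.6% to 100% of the *Cox4i1* and *Cox4i2* level per length in every culture. *Cox6a1* made up at least 99.9% beside the muscle isoform *Cox6a2*, and *Cox6b1* 98.4% to 99.7% beside the testis isoform *Cox6b2*. *Ndufa4* made up 99.4% to 100% beside *Ndufa4l2*, a gene that pericytes of the brain are known to express.

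The 3 genes for the c-ring subunit of ATP synthase were unequal. *Atp5g3* made up a median of 75.8% of their level per length in *APOE3* and 76.6% in *APOE4* cultures, *Atp5g2* made up 20.2% and 19.6%, and *Atp5g1* made up 4.05% and 3.82%. *Atp5g2* is the member with the largest share of stretches found in other genes, given above. *Cox7a2* and *Cox7a2l*, the latter known as a supercomplex assembly factor, split their set evenly, with *Cox7a2* at a median of 48.4% in *APOE3* and 49.1% in *APOE4* cultures. The ranges of the genotypes overlapped in each of these sets.

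The 7 members left out by the filter were all isoforms known mainly from other cells or tissues. *Ndufa4l2* had 39 counts over all libraries, *Cox4i2* 45, *Cox7a1* 38 and *Cox6a2* 4. *Cox7b2*, *Cox8b* and *Cox8c* had 0 counts in 250060448, which allows a level of up to 0.012 CPM over the 16 libraries, for counting error only.

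Whether *APOE* genotype moved this gene set was asked with edgeR's quasi-likelihood test fitted on all 12481 genes, with genotype as the term and the Benjamini-Hochberg adjustment over every tested gene. A gene is said to have changed at an adjusted p below 0.05. Nuclear-encoded respiratory chain genes hardly differed between *APOE4* and *APOE3* brain endothelial cells. Only 1 of the 78 tested members changed, *Ndufa6*, and it fell, whereas 12.8% of all tested genes changed and 6.09% fell. Without adjustment, 6 members that were higher and 1 that was lower had p below 0.05. The 8 *APOE4* and 8 *APOE3* values overlapped in all 78 members. They did not overlap in 0.625% of all tested genes, a share too small for the members to be set apart from it.

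The estimates were small as well as mostly short of the threshold. The median absolute log2 fold change was 0.041 over the members and 0.089 over all tested genes. It passed 0.2, or 1.15-fold, in 4 members (5.13%) and in 2648 genes (21.2%). The 95% interval lay wholly within ±0.2 for 59 members (75.6%), against 39.9% of all tested genes. Members also varied less among cultures, with a median biological coefficient of variation of 6.43% against 8.21%, so that their intervals were narrower. In these bulk cultures, a change in RNA per cell cannot be told apart from a change in the share of cells that carry it.

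**Figure D2:**
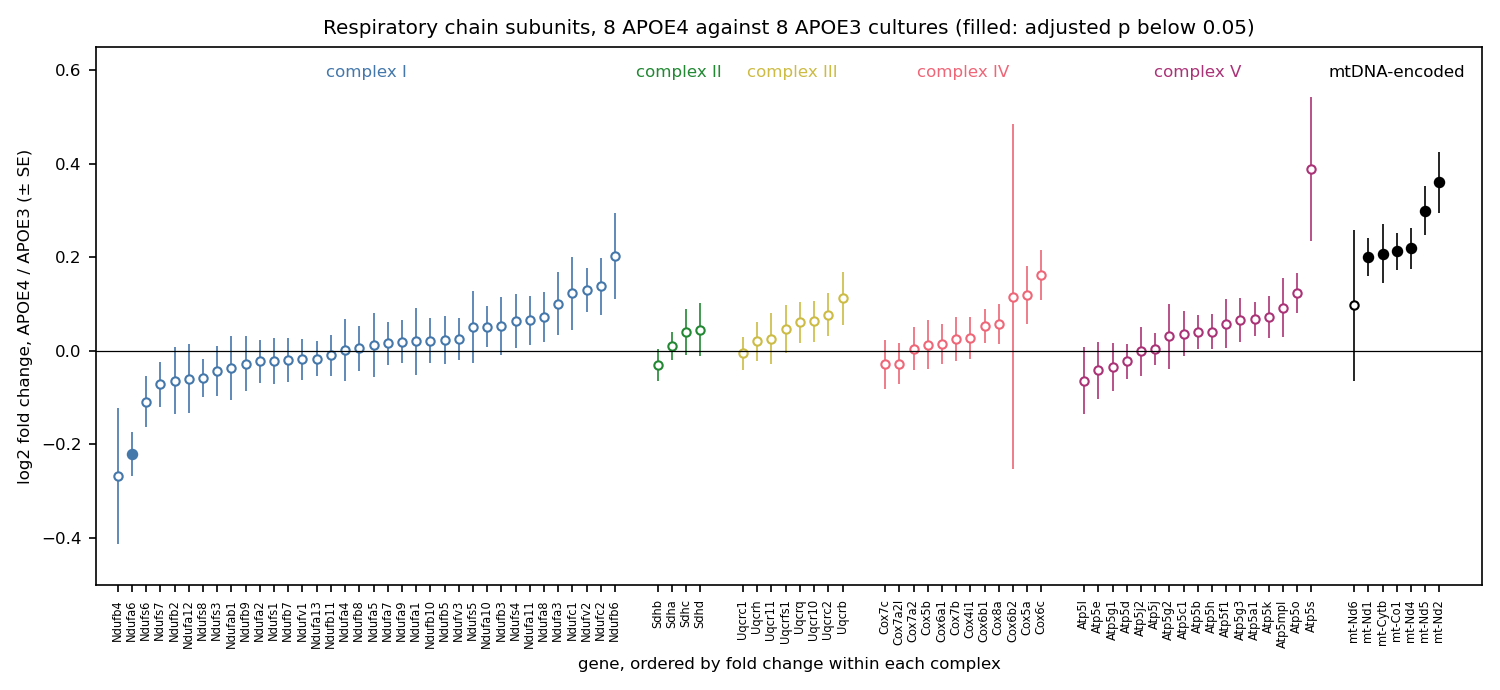
Log2 fold change of *APOE4* against *APOE3* cultures, with its standard error, for 77 of the 78 tested nuclear-encoded members by complex and the 7 tested mitochondrially encoded subunits, with filled points where the adjusted p is below 0.05. Among the nuclear-encoded members only *Ndufa6* is filled, and 6 of the 7 mitochondrially encoded subunits are.

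Complex I held the single change. *Ndufa6* encodes an accessory subunit of the LYR-motif family that sits in the matrix arm, and lies on chr15:82350140-82354322 of GRCm38, minus strand. Its level ran from 39.2 to 49.99 CPM in *APOE3* cultures with a median of 43.4, and from 35.0 to 40.1 CPM in *APOE4* cultures with a median of 37.4. The groups overlapped only at the edge, between the lowest *APOE3* and the highest *APOE4* cultures. The means were 43.6 ± 3.27 and 37.5 ± 1.72 CPM (SD, n = 8 each), a log2 fold change of -0.22 (SE 0.0462, 95% interval -0.32 to -0.12, edgeR adjusted p = 0.00817). *Ndufa6* shares no 50-base stretch with another annotated gene and no exon with a neighbor. It was called again in 24 of 25 alternative fits, and leaving out single libraries gave log2 fold changes of -0.24 to -0.19. The exception was the fit that held the cell cycle score as a term (log2 fold change -0.12, edgeR adjusted p = 0.679), in which 0 of all tested genes changed and 899 genes, 8 members among them, were below an unadjusted p of 0.05. The score had a mean of 5.66 in *APOE3* and 6.26 in *APOE4* cultures. It largely followed genotype, so that this fit, here and for the complexes below, cannot tell them apart.

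Over the 37 tested members of complex I, 20 were higher and 17 lower, and none but *Ndufa6* changed. Under the cell cycle term 8 were higher, 29 were lower and the median was -0.055. In the fit without that term the median log2 fold change was 0.0058, against -0.00022 for all tested genes. The core subunits of complex I carry the flavin and iron-sulfur centers or help bind ubiquinone. Among them, *Ndufs1*, *Ndufs3*, *Ndufs7*, *Ndufs8* and *Ndufv1* had log2 fold changes from -0.072 to -0.018, with edgeR adjusted p from 0.347 to 0.826, so that none changed. *Ndufv2*, an iron-sulfur subunit of the NADH-oxidizing module, ran from 39.6 to 47.7 CPM (median 43.4) in *APOE3* and from 44.1 to 54.9 CPM (median 47.2) in *APOE4* cultures. The ranges overlapped, and its log2 fold change of 0.13 (SE 0.0471) had an edgeR adjusted p of 0.0715.

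Among the accessory subunits of complex I, the highest and the lowest estimate, those of *Ndufb6* and *Ndufb4*, had wide errors. *Ndufb6* of the membrane arm ran from 18.2 to 24.6 CPM in *APOE3* and from 20.7 to 36.0 CPM in *APOE4* cultures, the top value being *APOE4* culture 1 (log2 fold change 0.20, SE 0.0924, edgeR adjusted p = 0.149). Without that culture its log2 fold change was 0.12, and with the cell cycle term it was -0.094. Its exons overlap those of *Smim27* on the opposite strand. *Ndufc2* had a log2 fold change of 0.14 (SE 0.0609, edgeR adjusted p = 0.136). *Ndufb4*, at 1.36 to 2.77 CPM the lowest tested member of the complex, had a log2 fold change of -0.27 (SE 0.145, edgeR adjusted p = 0.234).

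Complex II, the succinate dehydrogenase that joins the chain to the citric acid cycle, had the narrowest range of log2 fold changes over its members, -0.030 to 0.046. It also had the fewest members, 4, and a range widens with their number. Its median absolute log2 fold change was 0.035, above the 0.028 of complex IV and below the 0.042 to 0.054 of the other complexes. *Sdha* ran from 179.1 to 194.4 CPM (median 186.0) in *APOE3* and from 178.7 to 201.6 CPM (median 187.1) in *APOE4* cultures. Its log2 fold change was 0.010 (95% interval -0.053 to 0.073), and -0.0045 without *APOE4* culture 1. *Sdhb*, the iron-sulfur subunit, had a log2 fold change of -0.030 (95% interval -0.10 to 0.040). The membrane anchors *Sdhc* and *Sdhd* had 0.040 (95% interval -0.063 to 0.14) and 0.046 (95% interval -0.073 to 0.16), and *Sdhc* had 0.0064 without *APOE4* culture 1. All 4 members were lower with the cell cycle term, with a median of -0.068. All 4 intervals lay within ±0.2, and the edgeR adjusted p-values ran from 0.596 upward. *Sdha*, *Sdhb* and *Sdhd* share no stretch of 50 bases with other genes.

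In complex III, 7 of 8 members were higher in *APOE4* and 1 lower, none changed, and the median log2 fold change was 0.054. Under the cell cycle term 1 was higher and 7 lower, with a median of -0.055, and without *APOE4* culture 1 the split was 5 higher and 3 lower. *Uqcrb*, a small ubiquinone-binding subunit, was highest (log2 fold change 0.11, SE 0.0571, edgeR adjusted p = 0.198), followed by the core protein *Uqcrc2* (0.078, SE 0.0458, edgeR adjusted p = 0.276). The other core protein, *Uqcrc1*, was lowest. It ran from 108.1 to 118.2 CPM (median 114.7) in *APOE3* and from 104.6 to 128.3 CPM (median 112.6) in *APOE4* cultures, with a log2 fold change of -0.0047 (95% interval -0.078 to 0.068). *Uqcrh* stood at 0.020 and the Rieske protein *Uqcrfs1* at 0.047, both log2 fold changes with 95% intervals inside ±0.2, and *Uqcrh* at -0.00095 without *APOE4* culture 1.

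In complex IV, 10 of 12 tested members were higher and 2 lower, none changed, and the median log2 fold change was 0.027. Without *APOE4* culture 1 the split was 4 higher and 8 lower, with a median of -0.011, and with the cell cycle term it was 1 higher and 11 lower, with a median of -0.068. *Cox6c*, a small structural subunit, came nearest. It ran from 34.1 to 44.6 CPM (median 38.4) in *APOE3* and from 41.4 to 48.3 CPM (median 42.7) in *APOE4* cultures, so that the ranges overlapped. Its means were 39.0 ± 3.60 and 43.7 ± 2.68 CPM (SD, n = 8 each), a log2 fold change of 0.16 (SE 0.0540, edgeR adjusted p = 0.0512). It passed the threshold in 6 of 25 alternative fits, DESeq2 and limma voom among them, with adjusted p from 0.0212 to 0.945 over all 25. *Cox6c* overlaps exons of *Vps13b* on the opposite strand and shares 13.9% of its 50-base stretches with other genes.

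Of the other members of complex IV, *Cox5a*, which binds the matrix side of the enzyme, had the next highest estimate with an interval narrow enough to read, a log2 fold change of 0.12 (95% interval -0.0086 to 0.25, edgeR adjusted p = 0.204), and 0.076 without *APOE4* culture 1. The lowest were *Cox7c* (-0.029, SE 0.0526) and *Cox7a2l* (-0.027, SE 0.0432). *Cox4i1*, needed for the assembly of the enzyme, ran from 127.0 to 147.2 CPM (median 140.8) in *APOE3* and from 132.2 to 167.5 CPM (median 138.5) in *APOE4* cultures, with a log2 fold change of 0.028 (95% interval -0.064 to 0.12), which turned to -0.010 without *APOE4* culture 1. *Cox6a1* had a log2 fold change of 0.015 (95% interval -0.073 to 0.10), which turned to -0.013. The estimate for *Cox6b2* (0.12, 95% interval -0.65 to 0.88) was too wide to place a change, since this gene had 185 counts in all.

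In complex V, 12 of 17 members were higher and 5 lower, none changed, and the median log2 fold change was 0.040. Under the cell cycle term 1 was higher and 16 lower, with a median of -0.061. *Atp5b* ran from 471.4 to 517.6 CPM (median 491.2) in *APOE3* and from 476.1 to 571.4 CPM (median 498.2) in *APOE4* cultures. Its log2 fold change was 0.040 (95% interval -0.035 to 0.12) and 0.014 without *APOE4* culture 1, beside 0.069 (95% interval -0.0067 to 0.14) for *Atp5a1*, the alpha subunit of the same catalytic head. *Atp5o*, the stalk subunit known as the oligomycin sensitivity-conferring protein, ran from 67.1 to 78.6 CPM (median 72.8) in *APOE3* and from 71.5 to 86.3 CPM (median 79.2) in *APOE4* cultures. The ranges overlapped, and the log2 fold change was 0.12 (SE 0.0430, edgeR adjusted p = 0.0622). It passed the threshold in 4 of 25 alternative fits, with adjusted p from 0.0300 to 0.995.

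Outside the catalytic head and the stalk, *Atp5s* had the highest estimate of all members, a log2 fold change of 0.39 (SE 0.154, edgeR adjusted p = 0.0982). It rested on a low level, 3.07 to 4.52 CPM in *APOE3* and 3.34 to 7.58 CPM in *APOE4* cultures. The lowest members were *Atp5l*, a membrane subunit (-0.063, SE 0.0719), and *Atp5e*, the epsilon subunit (-0.042, SE 0.0611). The main c-ring gene *Atp5g3* had a log2 fold change of 0.066 (95% interval -0.034 to 0.17).

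**Figure D3:**
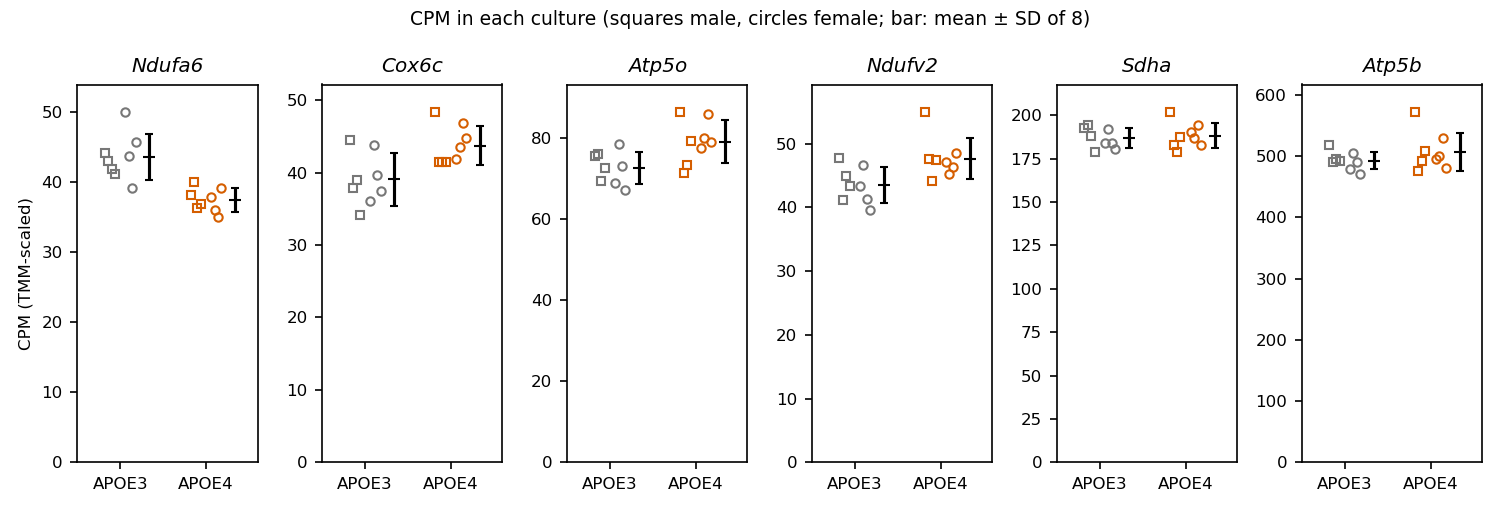
CPM of *Ndufa6*, *Cox6c*, *Atp5o*, *Ndufv2*, *Sdha* and *Atp5b* in each culture (squares male, circles female), with the mean and SD of the 8 cultures of each genotype beside them and each axis starting at 0. *Ndufa6* runs from 39.2 to 49.99 CPM in *APOE3* and from 35.0 to 40.1 CPM in *APOE4*, while the ranges of *Sdha* and *Atp5b* lie on top of each other.

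The small upward medians rested in part on *APOE4* culture 1. Over all 78 tested members, 52 were higher and 26 lower in *APOE4* cultures, and the median log2 fold change was 0.023. Without that library 40 were higher, 38 were lower and the median was 0.0026, and the medians of complexes I and IV turned to -0.011 each, with those of complexes II, III and V at 0.00098, 0.036 and 0.017. The mean log2 CPM of the members ran from 5.34 to 5.47 in *APOE3* and from 5.36 to 5.56 in *APOE4* cultures, its top values being *APOE4* culture 1 and *APOE3* culture 6. These libraries also had the highest cell cycle score of their genotype, 6.73 and 6.22. With that score as a term in the fit, 11 members were higher and 67 lower, and the median over all members became -0.061. The score itself ran from 5.18 to 6.22 in *APOE3* and from 5.94 to 6.73 in *APOE4* cultures. It largely followed genotype, so that its part and that of genotype cannot be told apart in this fit. The part of the cell cycle genes in the members' levels was not tested.

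The members were next set beside the subunits that the mitochondrial genome encodes. All 7 of the tested mitochondrial genes were higher in *APOE4* cultures and 6 of the 7 rose, beside 12.8% of all tested genes that changed. Their median log2 fold change was 0.21. In complex I, *mt-Nd1*, *mt-Nd2*, *mt-Nd4* and *mt-Nd5* rose by log2 fold changes of 0.20, 0.36, 0.22 and 0.30, whereas *mt-Nd6* had 0.097 (SE 0.161). In complex III, *mt-Cytb* rose by 0.21, and in complex IV, *mt-Co1* rose by 0.21, from 3738 ± 207.5 to 4333 ± 240.0 CPM (SD, n = 8 each). Mean log2 CPM of these 7 genes ran from 8.85 to 8.99 in *APOE3* and from 9.004 to 9.30 in *APOE4* cultures. This mean did not overlap, while that of the nuclear-encoded members did. Taken singly, each of the 7 genes had values that overlapped between the genotypes. In males 6 were higher and 1 lower in *APOE4* (median log2 fold change 0.23), and in females all 7 were higher (median 0.24). No mitochondrial gene of complex V was tested, because *mt-Atp6* and *mt-Atp8* had 0 to 2 counts per library. *mt-Co2*, *mt-Co3*, *mt-Nd3* and *mt-Nd4l* likewise had 0 to 6, so that the comparison covers only part of each complex, and the reason for these low counts was not tested.

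**Figure D4:**
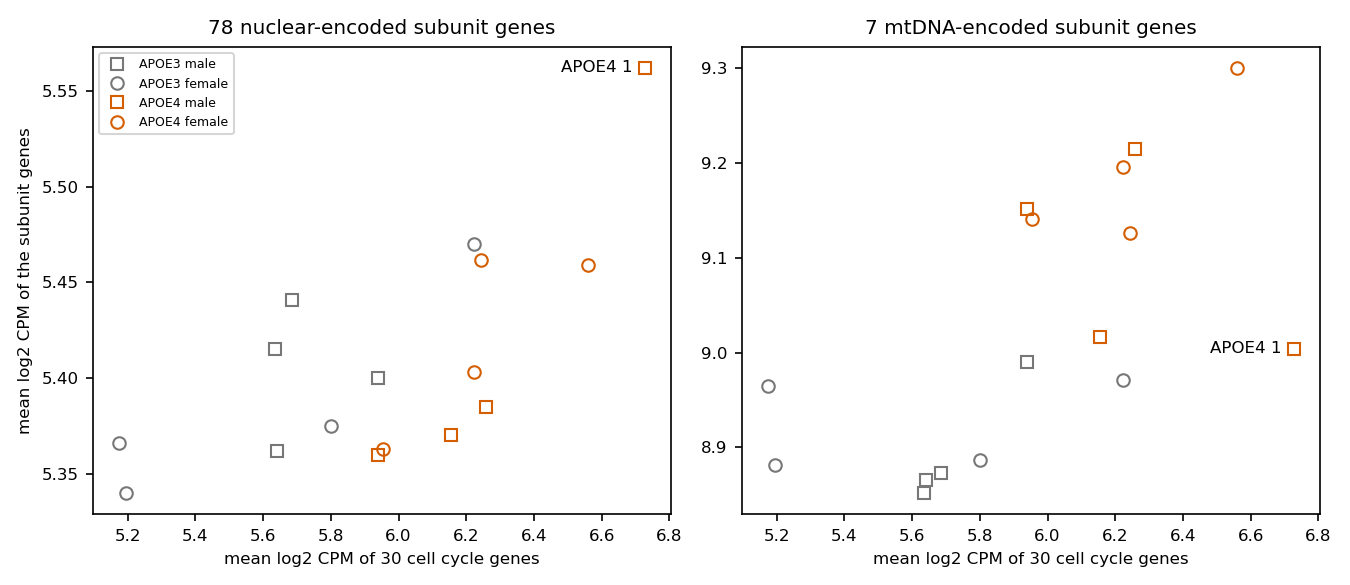
Mean log2 CPM of the 78 nuclear-encoded and of the 7 mitochondrially encoded subunit genes in each culture, against the mean log2 CPM of 30 cell cycle genes (gray *APOE3*, orange *APOE4*, squares male, circles female). In these means the genotypes overlap for the nuclear-encoded genes (5.34 to 5.47 against 5.36 to 5.56) and not for the mitochondrially encoded ones (8.85 to 8.99 against 9.004 to 9.30), and *APOE4* culture 1 is the highest on the left. Taken singly, each of the 7 mitochondrially encoded genes overlaps between the genotypes.

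Genes that build and supply the chain were given as lists, here and in the next paragraph, beside 12.8% of all tested genes that changed. With at most 2 calls in a list, the calls were too few to set any list apart from that share. Of 17 assembly factors of complex I and 4 of complex II, 0 changed in the edgeR test, with 1 and 0 below an unadjusted p of 0.05. Of 6 for complex III, *Uqcc3* fell by 0.16 on the log2 scale (edgeR adjusted p = 0.0488). *Ttc19* was lower (log2 fold change -0.21) with an unadjusted p below 0.05 only. Of 21 for complex IV, *Cmc2* rose (log2 fold change 0.35, edgeR adjusted p = 0.0230) and *Cox17*, a copper chaperone, fell by 0.25 (edgeR adjusted p = 0.0492). *Sco2* was lower (log2 fold change -0.49) with an unadjusted p below 0.05 only. None of 3 for complex V changed, and none was below an unadjusted p of 0.05.

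Among 20 tested electron carriers and ubiquinone synthesis genes, *Etfa*, the alpha subunit of the electron transfer flavoprotein, was the only one that rose (log2 fold change 0.17, edgeR adjusted p = 0.0375). *Cycs*, cytochrome c, had 0.11 (edgeR adjusted p = 0.276), and *Cyc1*, a complex III subunit outside the prefixes, had -0.060 (edgeR adjusted p = 0.283). Of 19 tested regulators of mitochondrial gene expression, 14 were lower in *APOE4* cultures with a median log2 fold change of -0.081. *Polrmt*, the mitochondrial RNA polymerase, was the only one that changed, falling by 0.18 on the log2 scale (edgeR adjusted p = 0.0281). *Nrf1*, *Gabpa*, *Esrra* and *Yy1*, whose motifs were searched above, had log2 fold changes of -0.0055, -0.053, -0.011 and -0.088, none past the threshold. *Yy1* came nearest (SE 0.0337, edgeR adjusted p = 0.0874).

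Sex was examined with a fit of 4 groups of 4 cultures. In males 0 members changed between genotypes, as did 0% of all tested genes, and 1 member was below an unadjusted p of 0.05. In females 0 members changed, again beside 0% of all tested genes, and 6 were below it. The interaction of genotype and sex gave 0 members and 0% of genes past the threshold, with 0 members below an unadjusted p of 0.05. *Ndufa6* was lower in both sexes, with log2 fold changes of -0.17 (SE 0.0673) in males and -0.27 (SE 0.0671) in females, and the difference was -0.10 (SE 0.0950, edgeR adjusted p = 1.00).

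Female and male cultures did not differ in any member past the threshold (0 of 78, against 0.0721% of all tested genes), and 0 members were below an unadjusted p of 0.05 in the edgeR test. This includes the 3 X-linked members, *Ndufa1*, *Ndufb11* and *Cox7b*. Their female against male log2 fold changes were 0.066 (SE 0.0728), -0.020 (SE 0.0463) and -0.020 (SE 0.0482).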

How the data were processed

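Per the labels, polyadenylated RNA was sequenced on libraries made from 100 ng of total RNA with 17 PCR cycles and 50-base reads. The authors deposited raw read counts per gene, for which the submitters' processing notes name STAR, featureCounts and the builds mm10 and hg38. Versions, strand setting and the treatment of reads with several matches are not given in the sources used here. Counts carry no molecular identifiers. The intervals come from the edgeR fit over replicate cultures, so they cover the spread between cultures as well as counting error. The limit given for genes without counts covers counting error only. Of 39056 mouse identifiers, 38872 matched GENCODE vM21 when versions were ignored. Each of the 16 columns was mapped to a culture by its label.

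Counts were fitted in R 4.3.3 with edgeR 4.0.16 (filterByExpr by genotype, TMM, quasi-likelihood F test, Benjamini-Hochberg adjustment over all tested genes, threshold 0.05). Males, females, their difference and sex came from 1 fit of 4 groups. SE is the log2 fold change divided by the square root of F, and intervals use the fit's total degrees of freedom. Log2 CPM used a prior count of 2, and scores are means of it. RPKM used the principal transcript's length. Alternatives were DESeq2 1.42.0 size factors and Wald test, limma 3.58.1 voom with quality weights, both other count filters, covariates, a GC and length correction, and each library left out. The fits were tested on simulated data. Figures were drawn with matplotlib 3.10.9.

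The members, lists and tests were chosen with earlier results of these data known. Genes were named if they changed in any contrast, were among the 2 highest or lowest fold changes of complexes I, III, IV and V or belonged to complex II, were the most or least abundant per length, core subunits, isoform sets, X-linked or filtered out. Further genes (*Atp5a1*, *Cycs*, *Cyc1*, *Nrf1*, *Gabpa* and *Esrra* among them) were named for their role or after their values were seen. No amino acid sequences were used here. Results for a single member are not reported here, and it was kept in all counts.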

Additional observations from a re-analysis of the deposited data

Results flagged for a closer look

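In groups of 8 cultures, 7 of 156 tests over the members set a single culture apart, where the gap to the nearest other culture is divided by the range of the group on the log2 CPM scale. About 1 in 20 groups is set apart by chance, so this number is near the share that chance gives. Of the 7, 4 were *APOE4* culture 1, the library with the fewest counts. In it, *Cox4i1* stood at 167.5 CPM against 132.2 to 143.0 CPM in the others (ratio 0.669), *Ndufv2* at 54.9 against 44.1 to 48.6 CPM (ratio 0.558), *Ndufb6* at 36.0 against 20.7 to 26.6 CPM (ratio 0.542) and *Sdhc* at 75.6 against 59.0 to 66.3 CPM (ratio 0.529). The share of all counts in the members was also set apart in this culture, at 0.532% (ratio 0.613).

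Among *APOE3* cultures, culture 6 was highest in *Ndufa2*, at 44.0 against 37.9 to 39.8 CPM (ratio 0.679), and in *Uqcr10*, at 45.6 against 38.4 to 41.5 CPM (ratio 0.547). Culture 1 was highest in *Atp5g1*, at 39.1 against 31.2 to 34.4 CPM (ratio 0.565).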

How the results depend on the processing

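*Ndufa6* kept its direction in all 25 alternatives and its call in all but the cell cycle covariate. The number of members that changed was 2 with at least 10 counts required in every library (*Cox6c* added), 2 with the GC and length correction (*Atp5o* added), 2 with DESeq2's Wald test and 2 with limma voom and quality weights (*Cox6c* added in both), and 0 with the cell cycle score as an added term. It was 1 to 4 when single libraries were left out, at 4 without *APOE3* replicate 6, at 3 without *APOE3* replicate 1 or *APOE4* replicate 2 and at 2 without *APOE4* replicate 3. The median log2 fold change with the cell cycle covariate was -0.061 over all members, -0.055 in complex I, -0.068 in complex II, -0.055 in complex III, -0.068 in complex IV and -0.061 in complex V, lower than 0 in each. That covariate largely followed genotype, so that the fit cannot tell them apart. In females, 1 member changed without the filter on low counts, and 0 to 1 when single libraries were left out (1 without *APOE3* replicate 6 or 7 or *APOE4* replicate 1). The causes were not tested. With the union of annotated exons as length, an alternative chosen after seeing the data, the median level per length was 22.2, 30.1, 33.7, 49.4 and 30.4 RPKM in complexes I to V, so the order of the complexes and the highest or lowest members of complexes I, III and V depend on the length used. Leaving out single libraries moved the median log2 fold change between 0.0026 and 0.034 over all members, -0.011 and 0.019 in complex I, and -0.011 and 0.040 in complex IV. When single libraries were left out, 5 to 12 members were below an unadjusted p of 0.05. The number was highest without *APOE3* replicate 1 (12) and without *APOE3* replicate 6 (11). All other alternatives stayed within the spread between replicates or within 1.5 times the count. No paired analysis was possible because the replicate numbers only name the cultures within a genotype. Depth limits *Cox6b2*, *Atp5s* and *Ndufb4*, whose 95% intervals span up to ±0.77 on the log2 scale around the estimate.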
